A study of Mus musculus with 17 samples.

Results

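A group of 10 genes of cystine uptake and glutathione metabolism was followed in cultured mouse bone marrow macrophages and in the osteoclast precursors made from them. The genes were chosen by name for their place in this pathway. They are Slc7a11 and Slc3a2, the subunits of the cystine carrier, Gclc, Gclm and Gss, which build glutathione, Gsr, which regenerates it, Gpx1 and Gpx4, which spend it on peroxides, Ggt5, which breaks it down outside the cell, and Acsl4, which makes the lipids that Gpx4 protects. All 10 were found among the 41388 gene identifiers of the count tables, and all 10 passed the filter on low counts in every comparison.

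The study asked what the deubiquitinase BAP1, which removes ubiquitin from histone H2A, does in osteoclasts. Bone marrow macrophages (BMMs) were grown with M-CSF, and preosteoclasts (preOCs, labelled OC) were BMMs given M-CSF with RANKL at 100 ng/ml for 24 h. Bap1flox mice carried loxP-flanked Bap1 on both alleles and no Cre. Bap1LysM mice (Bap1ΔLysM) carried the same alleles and were heterozygous for Cre recombinase at the lysozyme M gene, Lyz2 (LysMCre+/− in the study). Deletion thus takes place in myeloid cells, macrophages included, and not in osteoclasts alone. There were 6 Bap1flox and 5 Bap1LysM preOC libraries, from 20-week-old male mice, and 3 BMM libraries of each genotype, for which the sources used here give no age or sex. The study describes the preOC libraries as biologically independent. For the BMM libraries the sources used here do not say so, and p-values that use them measure a spread that may be technical in part. Changes by RANKL below are preOCs against BMMs, and other differences between these cultures cannot be told apart from RANKL.

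Library totals ran from 37967542 to 61369441 counts. The preOC libraries fell into 2 sets with different forms of name, replicates 1 to 3 and replicates 4 to 6, and mitochondrially encoded genes took 0.450% to 0.99% of counts in the former set (with the BMMs) and 2.23% to 4.91% in the latter. Bap1 itself, counted over all its exons and so no check of the deleted part, was at 70.3 to 97.1 CPM (here and for Lyz2 counts over the library total, elsewhere also scaled by TMM factors) in Bap1flox and 55.9 to 87.7 in Bap1LysM preOCs. Lyz2, which Cre insertion disrupts, was at 0.146% to 0.436% of the Bap1flox mean in 6 of the 8 Bap1LysM libraries, but at 42.8% in the library labelled Bap1LysM BMM 1 and 75.1% in that labelled Bap1LysM preOC 1. These libraries stand apart from the other Bap1LysM libraries in Lyz2. Heterozygous Cre insertion leaves the other Lyz2 allele intact, so Lyz2 RNA should remain. The near loss of Lyz2 in the 6 libraries, and not its presence in these, thus departs from the genotype given above. The cause was not tested. The main results that use the libraries labelled Bap1LysM BMM 1 and Bap1LysM preOC 1 are also given without them. The 10 osteoclast markers summed to 241 to 386 CPM in BMMs and to 6065 to 16378 CPM in preOCs, while the 8 macrophage markers stayed at 3686 CPM or above in all libraries.

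Cystine, the oxidized form of cysteine, enters cells in exchange for glutamate through the xCT carrier. SLC7A11 is the subunit that moves the amino acids, and SLC3A2 (CD98) is a shared heavy chain that carries it, and several other SLC7 light chains, to the plasma membrane. Inside the cell cystine is reduced to cysteine, glutamate-cysteine ligase joins it to glutamate in the rate-limiting step, and glutathione synthetase adds glycine. RANKL signalling in osteoclast precursors raises reactive oxygen species and uses them as signals, so the balance of glutathione and peroxides is a known control point of osteoclast formation.

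Of the carrier's subunits, Slc7a11 was higher in Bap1LysM preOCs and Slc3a2 did not pass the test between genotypes. Among the 10 genes, 3 passed an adjusted p of 0.05 between genotypes in preOCs, all higher in Bap1LysM (Slc7a11, Gsr and Ggt5), where 15.8% of the 12929 genes tested passed, 7.12% higher and 8.68% lower. In BMMs 1 of 10 passed (Gpx1, higher in Bap1LysM), against 5.32% of 13028 genes (1.31% higher and 4.01% lower). RANKL changed many more of them. In Bap1flox replicates 1 to 3, 7 of 10 passed, with Slc7a11 and Gpx1 higher in preOCs and Slc3a2, Gclc, Gclm, Gpx4 and Ggt5 lower, a share near the 58.1% of all 13637 genes (29.4% higher and 28.7% lower). Their libraries did not overlap between conditions for 7 of 10, against 70.9% of all genes. In Bap1LysM 5 of 10 passed by RANKL, against 38.9%. The median log2 fold change by genotype over the 10 genes was 0.20 in preOCs and 0.32 in BMMs, beside -0.01 and -0.01 over all genes tested. Each p here comes from the edgeR quasi-likelihood test across all genes with Benjamini-Hochberg adjustment.

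**Figure D1:**
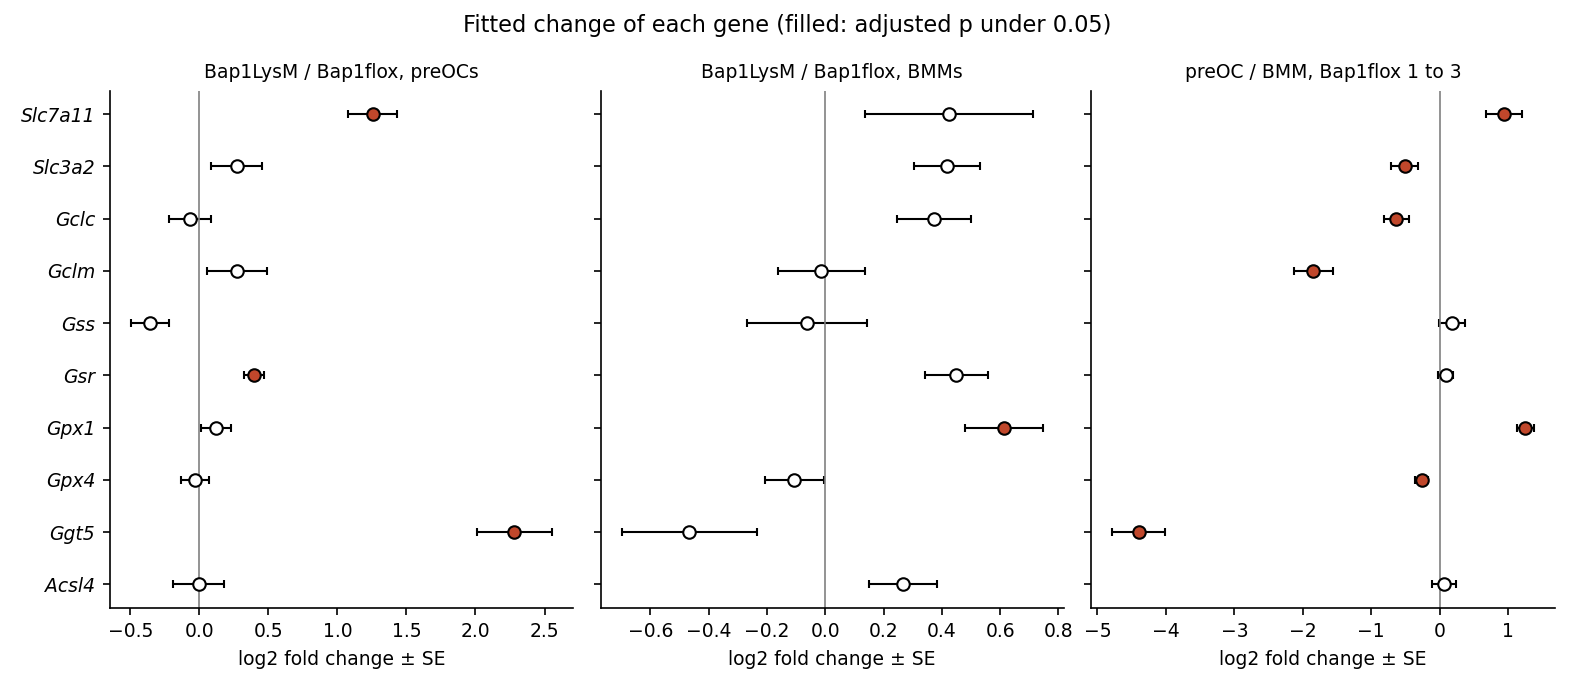
Fitted log2 fold change of each gene with its standard error (x axis, a separate scale in each panel) between genotypes in preOCs (6 Bap1flox, 5 Bap1LysM libraries), between genotypes in BMMs (3 and 3) and between preOCs and BMMs of Bap1flox replicates 1 to 3 (3 and 3). Filled points passed an adjusted p of 0.05, and they mark 3, 1 and 7 of the 10 genes.

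Set on a common scale per length (RPKM, CPM per kilobase of exon), the genes differed widely in level. Gpx1 was the highest in every group, at 415 ± 34.5 RPKM (SD, n = 3) in Bap1flox BMMs and 968 ± 69.5 (SD, n = 6) in Bap1flox preOCs. Slc7a11 was the lowest of the 10 in the BMMs of either genotype, at 0.648 ± 0.227 (SD, n = 3) in Bap1flox. In preOCs Ggt5 took the lowest place and Slc7a11 the next. The neighbours that could not be ordered, because their libraries overlapped, were Gclm and Slc3a2 in Bap1flox BMMs, Slc3a2, Gsr and Gclm as well as Ggt5 and Gss in Bap1LysM BMMs, Slc3a2 with Gclm and Gclc with Acsl4 in Bap1flox preOCs, and Gsr with Slc3a2, Gclc with Acsl4 and Gss with Slc7a11 in Bap1LysM preOCs. In Bap1LysM preOCs Slc7a11 was at 3.74 ± 0.442 RPKM (SD, n = 5) beside 4.39 ± 0.615 for Gss. Levels compared between genes also depend on the exon length used, which for Slc7a11 was 11245 bases in the count tables and 13922 in the GENCODE M21 annotation.

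**Figure D2:**
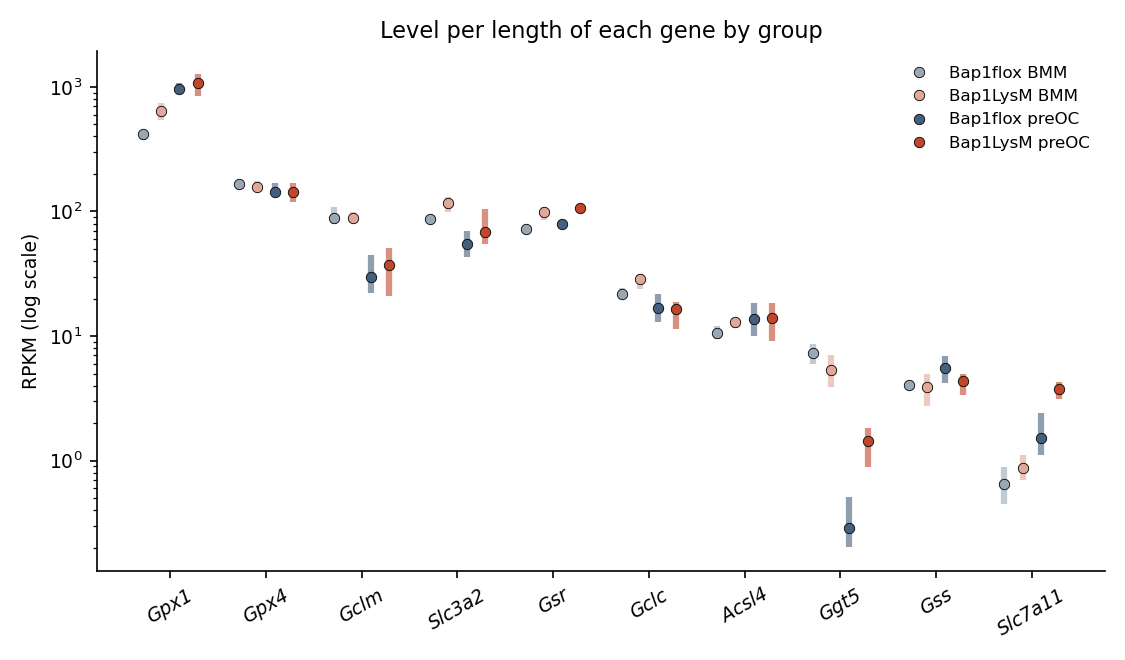
Level per length (RPKM, log axis) of the 10 genes in the 4 groups. Points are group means and bars span the lowest to the highest library. Slc7a11 stands last in BMMs at 0.648 and 0.878 RPKM, while Ggt5 falls from 7.26 RPKM in Bap1flox BMMs to 0.288 in Bap1flox preOCs.

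Slc7a11 (ENSMUSG00000027737) lies on the minus strand of chromosome 3 at 50364936 to 50443613 (GRCm38, as in the count tables). Its CPM was 10.1, 5.01 and 6.80 in Bap1flox BMM replicates 1, 2 and 3. In Bap1LysM BMMs it was 12.5, 7.82 and 9.29. Replicate 1 was the highest of either genotype and the genotypes overlapped, and the fitted difference was a log2 fold change of 0.42 (SE 0.29, adjusted p = 0.373 by edgeR), and 0.22 (adjusted p = 0.685) without the library labelled Bap1LysM BMM 1. Slc7a11 was higher in Bap1LysM in each of the 3 same-numbered pairs, and with the replicate block the log2 fold change was 0.45 (edgeR adjusted p = 0.0684).

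In Bap1flox preOCs Slc7a11 was at 12.4, 16.6 and 26.9 CPM in the lowest, median and highest of 6 libraries. The Bap1LysM preOCs were at 48.0, 35.3, 43.1, 39.0 and 44.7 CPM in replicates 1, 2, 4, 5 and 6. Every Bap1LysM library was therefore above every Bap1flox library, as for 3 of the 10 genes and 9.46% of all genes tested. The group means were 17.2 ± 5.17 (SD, n = 6) and 42.0 ± 4.97 (SD, n = 5), a log2 fold change of 1.26 (SE 0.18, edgeR adjusted p = 0.00123). Within replicates 1 to 3 the log2 fold change was 1.56, where edgeR passed none of the genes (adjusted p = 0.153, 2373 genes at an unadjusted p under 0.05), while replicates 4 to 6 alone gave 1.01 (adjusted p = 0.00277). Without the library labelled Bap1LysM preOC 1 it was 1.19 (adjusted p = 0.00134).

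Slc7a11 was higher in preOCs than in BMMs of either genotype. In the libraries of replicates 1 to 3, where both conditions exist, Bap1flox went from 5.01 to 10.1 CPM in BMMs to 12.4, 13.3 and 16.3 CPM in preOCs, with no overlap, a log2 fold change of 0.94 (SE 0.26, edgeR adjusted p = 0.0112). In Bap1LysM the 2 preOC libraries at 48.0 and 35.3 CPM stood above BMMs at 7.82 to 12.5 CPM, a log2 fold change of 2.08 (SE 0.29, edgeR adjusted p = 0.00058). With both Bap1LysM libraries numbered 1 left out, an alternative chosen after the data were seen that leaves a single Bap1LysM preOC library, assumed to vary like the others, it was 2.05 (adjusted p = 0.00171). The difference between these responses, the interaction of genotype and RANKL, was 1.14 on the log2 scale (SE 0.39, unadjusted p = 0.015, edgeR adjusted p = 0.342) and did not pass. With both Bap1LysM libraries numbered 1 left out it was 1.10 (adjusted p = 0.264). In the fit of 11 libraries edgeR passed 0 of 13637 genes (0.0%), with 1718 at an unadjusted p under 0.05, and DESeq2 passed 117.

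Slc3a2 (ENSMUSG00000010095, chromosome 19, 8706882 to 8723369, minus strand) went the other way with RANKL. It was at 265, 250.5 and 249 CPM in Bap1flox BMMs and at 204, 166 and 166 CPM in Bap1flox preOC replicates 1 to 3. The conditions did not overlap, and Slc3a2 fell by 0.51 on the log2 scale (SE 0.20, edgeR adjusted p = 0.0485), a call that was lost in 8 of 11 fits that left out a library, with an adjusted p of up to 0.135 (without Bap1flox preOC replicate 2). Between genotypes the Bap1LysM BMMs, at 388, 351 and 291 CPM, lay above all Bap1flox BMMs (log2 fold change 0.42, SE 0.11), but the edgeR adjusted p was 0.0803. A block for the replicate number made it pass (adjusted p = 0.04), and likewise with limma (0.0303) and DESeq2 (0.012). Without the library labelled Bap1LysM BMM 1 it was 0.32 (edgeR adjusted p = 0.139).

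In preOCs Slc3a2 was at 129, 163 and 204 CPM (lowest, median and highest of 6) in Bap1flox. In Bap1LysM preOCs it was at 311, 170.1, 192, 171 and 161 CPM in replicates 1, 2, 4, 5 and 6. The groups overlapped, and the library labelled Bap1LysM preOC 1 stood far above the other 4. The log2 fold change was 0.27 (SE 0.18, edgeR adjusted p = 0.35) and 0.04 (adjusted p = 0.808) without that library. By RANKL in Bap1LysM the log2 fold change was -0.51 (SE 0.22, edgeR adjusted p = 0.0963), and with both Bap1LysM libraries numbered 1 left out Slc3a2 fell by 0.91 (adjusted p = 0.00261). With the replicate block it also passed (-0.61, adjusted p = 0.0212).

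**Figure D3:**
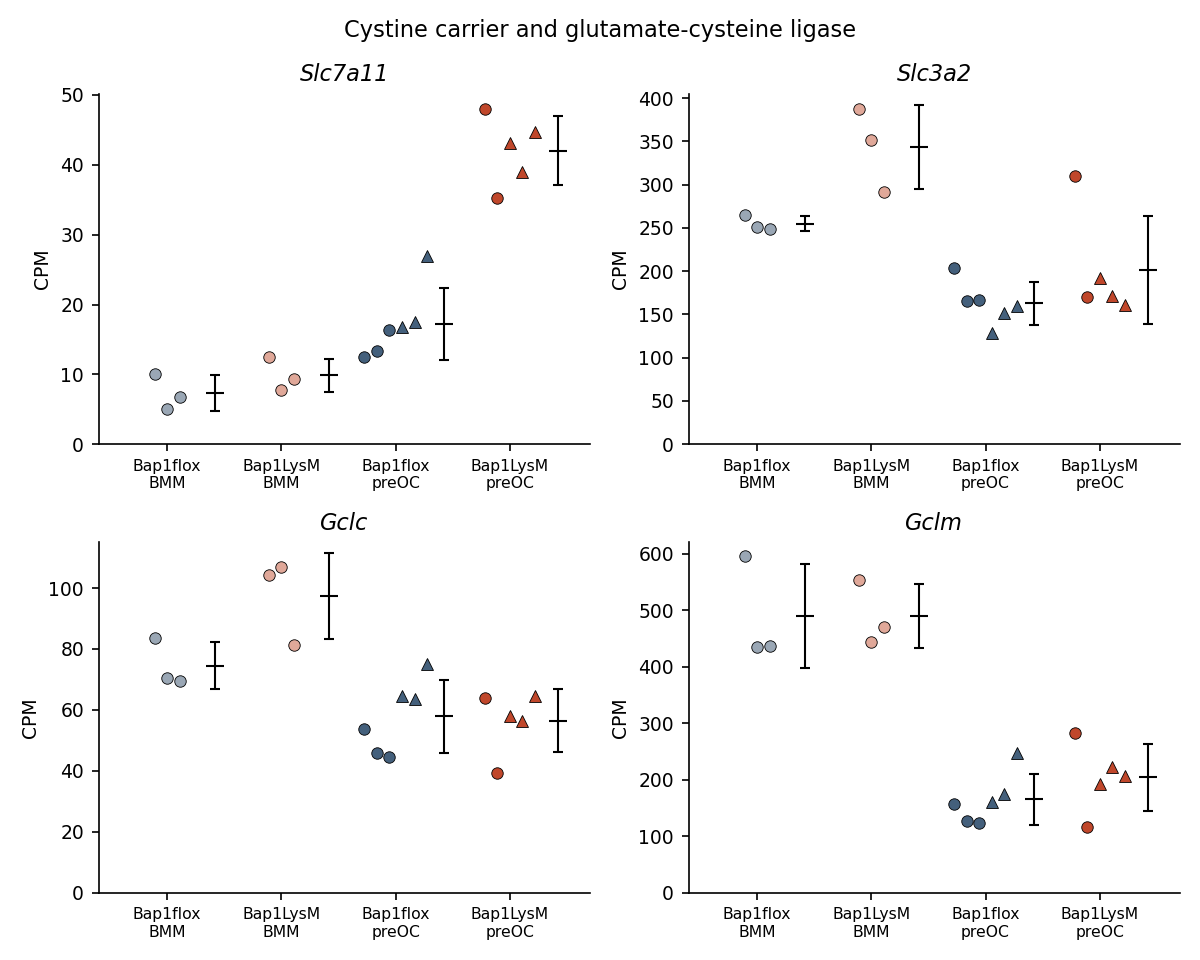
CPM of Slc7a11, Slc3a2, Gclc and Gclm in each library (circles, replicates 1 to 3; triangles, replicates 4 to 6; within a group from the lowest to the highest replicate number), with the group mean and SD at the right of each group. All 5 Bap1LysM preOC libraries lie above the 6 Bap1flox preOC libraries for Slc7a11, while for Slc3a2 only the library labelled replicate 1, at 311 CPM, does.

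Because the subunits work as a pair, the RPKM of Slc7a11 was also taken as a percentage of that of Slc3a2 within each library, a value that does not depend on library scaling. It was 0.997%, 0.526% and 0.718% in Bap1flox BMMs and 0.849%, 0.586% and 0.839% in Bap1LysM BMMs. The BMM genotypes overlapped, with a difference in mean log2 ratio of 0.05 (exact permutation test, two-sided, p = 1, n = 3 and 3, smallest p possible 0.1). Without the library labelled Bap1LysM BMM 1 the difference was -0.04. In Bap1flox preOC replicates 1 to 6 the percentages were 1.60%, 2.11%, 2.57%, 3.44%, 3.01% and 4.42%. In Bap1LysM preOC replicates 1, 2, 4, 5 and 6 they were 4.07%, 5.46%, 5.91%, 6.00% and 7.32%.

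The Bap1LysM preOCs thus held more Slc7a11 RNA per Slc3a2 RNA than the Bap1flox preOCs, by 1.06 on the log2 scale or 2.08-fold (two-sided exact permutation test, p = 0.00649, n = 6 and 5, 0.0195 after Benjamini-Hochberg adjustment over the 3 ratio tests). With each of the 11 libraries left out in turn, that labelled Bap1LysM preOC 1 among them, the difference was 0.91 to 1.20 (exact permutation p of 0.00794 to 0.019). The groups overlapped only between Bap1flox replicate 6 and the library labelled Bap1LysM replicate 1, which belong to different library sets. Within each set they did not overlap, with Bap1flox at 1.60% to 2.57% and Bap1LysM at 4.07% and 5.46% in replicates 1 to 3. By RANKL in Bap1flox replicates 1 to 3 the mean ratio was 2.85-fold higher with no overlap, and the exact permutation p was 0.1, the smallest that 3 against 3 libraries can give (0.15 after adjustment).

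**Figure D4:**
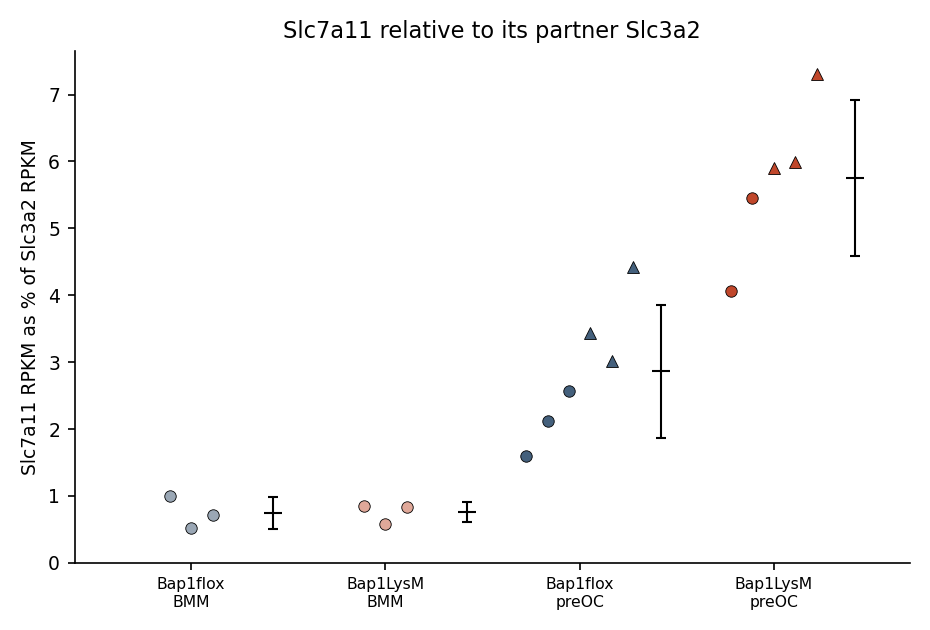
Slc7a11 RPKM as a percentage of Slc3a2 RPKM in each library of the 4 groups (circles, replicates 1 to 3; triangles, replicates 4 to 6), with mean and SD. The percentage stays under 1% in the 6 BMM libraries and lies at 4.07% to 7.32% in Bap1LysM preOCs.

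Slc3a2 also serves other SLC7 light chains, of which Slc7a5 (LAT1) and Slc7a8 (LAT2) carry large neutral amino acids, and Slc7a6 and Slc7a7 carry cationic with neutral ones. Per length, Slc7a8 was the most abundant in all 4 groups, at 64.9 ± 3.95 RPKM (SD, n = 3) in Bap1flox BMMs and 28.6 ± 8.62 (SD, n = 6) in Bap1flox preOCs. Slc7a11 made up 0.446% to 1.01% of the summed RPKM of the 6 light chains in Bap1flox BMMs, 0.359% to 0.646% in Bap1LysM BMMs, 1.41% to 4.96% in Bap1flox preOCs and 4.54% to 8.22% in Bap1LysM preOCs. The sum itself was 110.2 ± 10.3% (SD, n = 3) of the Slc3a2 RPKM in Bap1flox BMMs and 144 ± 16.7% (SD, n = 3) in Bap1LysM BMMs. In preOCs it was 105 ± 8.98% (SD, n = 6) in Bap1flox and 89.7 ± 4.06% (SD, n = 5) in Bap1LysM. Of the 4 partners other than Slc7a11 that could be tested (Slc7a10 was at or near 0), Slc7a7 was higher in Bap1LysM preOCs (log2 fold change 0.66, SE 0.15, edgeR adjusted p = 0.0129). Slc7a8 was higher in Bap1LysM BMMs (1.09, SE 0.16, adjusted p = 0.0221), a call that held in 2 of 6 fits that left out a library. RANKL in Bap1flox raised Slc7a5 and Slc7a6 and lowered Slc7a7 and Slc7a8.

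Bases upstream of a start site of each carrier subunit are shown because their RNAs moved in opposite directions with RANKL, and those of Gclm because it fell. They are the 250 bases before the RefSeq start site (GRCm38.p6), 5′ to 3′ on the gene's strand, at chr3:50443614-50443863 (minus) for Slc7a11, chr19:8713898-8714147 (minus) for Slc3a2 and chr3:122245307-122245556 (plus) for Gclm. Capitals mark the letters TGATGNAA, the core of an element bound by ATF4 with a C/EBP partner, and TGACNNNGC, the core of the antioxidant response element that NRF2 binds, each searched on both strands.
Slc7a11: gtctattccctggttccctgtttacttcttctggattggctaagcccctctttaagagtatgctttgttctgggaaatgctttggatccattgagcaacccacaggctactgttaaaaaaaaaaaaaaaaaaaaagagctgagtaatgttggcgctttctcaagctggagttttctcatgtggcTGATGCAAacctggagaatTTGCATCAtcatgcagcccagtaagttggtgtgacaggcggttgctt
Slc3a2: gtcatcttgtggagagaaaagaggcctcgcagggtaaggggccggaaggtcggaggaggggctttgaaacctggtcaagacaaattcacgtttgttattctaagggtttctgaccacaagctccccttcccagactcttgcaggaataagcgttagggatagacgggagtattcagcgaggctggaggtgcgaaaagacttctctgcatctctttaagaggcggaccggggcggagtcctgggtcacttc
Gclm: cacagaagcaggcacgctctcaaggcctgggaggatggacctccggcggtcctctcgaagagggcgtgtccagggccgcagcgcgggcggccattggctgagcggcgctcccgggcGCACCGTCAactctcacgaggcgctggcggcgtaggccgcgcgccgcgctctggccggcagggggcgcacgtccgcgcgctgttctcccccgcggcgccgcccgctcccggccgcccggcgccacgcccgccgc

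The Slc7a11 window held 2 matches to TGATGNAA, which face each other on opposite strands and begin 66 and 47 bases before the start site, and none to TGACNNNGC. The Slc3a2 window held no match to either. It lies before a start site inside the gene as the count tables bound it, and the bases before the outer end at 8723369 were not analysed here. The Gclm window held 1 match to TGACNNNGC on the minus strand. Over 32851 windows of the same length, 3.45% held TGATGNAA and 10.2% TGACNNNGC. Windows were found for 7 of the 10 genes, those of Gss, Gpx1, Gpx4 and Acsl4 held neither, and Gclc, Gsr and Ggt5 were not analysed here. A match is a run of letters and no evidence of binding.

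Gclc and Gclm, the catalytic and modifier subunits of glutamate-cysteine ligase, fell with RANKL. Gclm (chromosome 3, 122245557 to 122269984) was at 597, 436 and 437 CPM in Bap1flox BMMs and at 158, 128 and 123 CPM in Bap1flox preOC replicates 1 to 3. With no overlap, this was a fall to 0.279 of the BMM level (log2 fold change -1.84, SE 0.28, edgeR adjusted p = 0.000404). Gclc (chromosome 9, 77754535 to 77794485) went from 83.6, 70.5 and 69.6 CPM to 53.6, 45.9 and 44.6 CPM, also without overlap (log2 fold change -0.63, SE 0.18, edgeR adjusted p = 0.012). In Bap1LysM Gclc fell by 0.91 (edgeR adjusted p = 0.00631) and Gclm fell by 1.29 (adjusted p = 0.0104). With both Bap1LysM libraries numbered 1 left out Gclc fell by 1.26 (adjusted p = 0.00155) and Gclm fell by 1.96 (adjusted p = 0.000381) in Bap1LysM.

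Between genotypes neither subunit passed by edgeR. In preOCs Gclc was at 44.6 to 75.0 CPM in Bap1flox and 39.2 to 64.7 in Bap1LysM (log2 fold change -0.07, SE 0.15, edgeR adjusted p = 0.798). Gclm was at 123 to 247 CPM and 117 to 283 CPM (0.28, SE 0.22, adjusted p = 0.423), and passed with limma (0.36, adjusted p = 0.0449). Without the library labelled Bap1LysM preOC 1, its highest, the log2 fold change of Gclm was 0.11 (edgeR adjusted p = 0.706). The groups overlapped widely for either gene. In BMMs Gclc was at 69.6 to 83.6 CPM in Bap1flox and 81.3 to 107 in Bap1LysM (0.37, SE 0.13, adjusted p = 0.129), and passed with limma (0.43, adjusted p = 0.0395). The log2 fold change of Gclm there was -0.01 (SE 0.15, edgeR adjusted p = 0.962). Per length, Gclc was at 0.227 to 0.262 of Gclm in Bap1flox BMMs and 0.280 to 0.389 in Bap1LysM BMMs, and at 0.491 to 0.648 and 0.366 to 0.543 in the preOCs of these genotypes. Of the exon bases of Gclm, 244 are shared with a pseudogene on the same strand and 296 with a transcript on the other strand, so its count is less certain.

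Gss, glutathione synthetase (chromosome 2, 155563181 to 155592810), did not pass by RANKL. It was at 22.7, 25.4 and 23.7 CPM in Bap1flox BMMs and at 24.7, 29.1 and 27.2 CPM in preOC replicates 1 to 3 (log2 fold change 0.18, SE 0.19, edgeR adjusted p = 0.453). In preOCs it was at 24.7, 32.2 and 40.8 CPM (lowest, median and highest of 6) in Bap1flox and at 26.7, 28.5, 29.1 and 25.5 CPM in Bap1LysM replicates 2, 4, 5 and 6, with the library labelled replicate 1 below them (1011 counts). The groups overlapped, and the Bap1flox libraries of replicates 4 to 6 lay above those of replicates 1 to 3. The log2 fold change was -0.36 (SE 0.14, edgeR adjusted p = 0.105). It passed, as lower in Bap1LysM, when the replicate number was a block (-0.39, adjusted p = 0.0096), when a term for library set was added (-0.38, adjusted p = 0.0104) and in replicates 4 to 6 alone (-0.49, adjusted p = 0.00418). Without the library labelled Bap1LysM preOC 1 it was -0.28 (edgeR adjusted p = 0.15). In BMMs the log2 fold change was -0.06 (SE 0.21, adjusted p = 0.864). Of the exon bases of Gss, 913 are shared with genes on the opposite strand (Acss2, Gssos1, Gssos2), and the sources used here do not say whether counting used strand.

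Gsr, glutathione reductase (chromosome 8, 33652523 to 33698163), was higher in Bap1LysM preOCs. In Bap1flox preOCs it was at 199.5, 221 and 233 CPM in the lowest, median and highest library. In Bap1LysM preOCs it was at 281, 315, 269, 308 and 302 CPM. No library overlapped, and the log2 fold change was 0.39 (SE 0.07, edgeR adjusted p = 0.00462), called in 11 of 11 fits that left out a library and at 0.40 (adjusted p = 0.00379) without the library labelled Bap1LysM preOC 1. The Bap1flox BMMs held Gsr at 188, 206 and 204 CPM, and the Bap1LysM BMMs at 236, 289 and 299 CPM, again without overlap, as for 3 of the 10 genes and 34.0% of all genes tested. There the log2 fold change was 0.45 (SE 0.11, edgeR adjusted p = 0.0623), which passed with the replicate block (adjusted p = 0.0214) and without the library labelled Bap1LysM BMM 1 (0.55, adjusted p = 0.0367). RANKL left it at 199.5, 219 and 215 CPM in Bap1flox preOC replicates 1 to 3 (0.09, SE 0.10, adjusted p = 0.498).

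Gpx1, the abundant cytosolic glutathione peroxidase (chromosome 9, 108339080 to 108340338), rose with RANKL. It was at 445, 459 and 391 CPM in Bap1flox BMMs and at 1067, 1016 and 992 CPM in preOC replicates 1 to 3, without overlap (log2 fold change 1.25, SE 0.12, edgeR adjusted p = 4.07e-05). In Bap1LysM BMMs it was at 568, 779 and 653 CPM, above all Bap1flox BMMs (0.61, SE 0.13, adjusted p = 0.0499). That call lies at the threshold, was lost with RLE factors (adjusted p = 0.0502) and upper-quartile factors (0.0585), and held in 1 of 6 fits that left out a library, that without the library labelled Bap1LysM BMM 1 (0.72, adjusted p = 0.0417). In preOCs the genotypes overlapped at 920.3 to 1109 and 883 to 1311 CPM (0.12, SE 0.11, adjusted p = 0.485). The RANKL response of Bap1LysM was 0.70 (SE 0.13, adjusted p = 0.00304) and the interaction -0.55 (unadjusted p = 0.0136, adjusted p = 0.338). With both Bap1LysM libraries numbered 1 left out these were 0.65 (edgeR adjusted p = 0.00558) and -0.60 (adjusted p = 0.203).

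Gpx4, the selenoprotein that reduces lipid peroxides in membranes (chromosome 10, 80047166 to 80056439), was lower after RANKL. It was at 277, 303 and 282 CPM in Bap1flox BMMs and at 248, 231 and 240.2 CPM in preOC replicates 1 to 3 (log2 fold change -0.26, SE 0.09, edgeR adjusted p = 0.0337). This call was lost in 5 of 11 fits that left out a library, with an adjusted p of up to 0.113 (without Bap1flox preOC replicate 2), and also with upper-quartile factors (0.0918) and with no filter on low counts (0.0826). Between genotypes the log2 fold change was -0.03 (SE 0.10, adjusted p = 0.865) in preOCs and -0.11 (SE 0.10, adjusted p = 0.522) in BMMs. Acsl4, which activates arachidonic and adrenic acid for membrane lipids (chromosome X, 142317993 to 142390535), did not pass in any of these comparisons. Its preOC levels were 53.6 to 99.5 CPM in Bap1flox and 49.3 to 98.7 in Bap1LysM, with replicates 4 to 6 at 74.1 CPM or above in either genotype. Its log2 fold change was -0.01 (SE 0.18) in preOCs, 0.27 (SE 0.12, edgeR adjusted p = 0.204) in BMMs and 0.06 (SE 0.17, adjusted p = 0.767) by RANKL in Bap1flox.

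Ggt5, a gamma-glutamyltransferase of the cell surface that cleaves leukotriene C4 and glutathione conjugates (chromosome 10, 75589340 to 75617200), had the largest changes of the 10 genes by genotype in preOCs and by RANKL in Bap1flox. It was at 41.2, 28.3 and 33.6 CPM in Bap1flox BMMs and at 1.20, 1.28 and 2.41 CPM in preOC replicates 1 to 3 (60, 74 and 128 counts). With no overlap, this was a fall to 0.0476 of the BMM level (log2 fold change -4.39, SE 0.39, edgeR adjusted p = 2.53e-05). The other Bap1flox preOCs were at 1.04, 0.955 and 1.30 CPM.

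In Bap1LysM preOCs Ggt5 was at 8.66, 4.18, 6.99, 8.03 and 6.32 CPM in replicates 1, 2, 4, 5 and 6 (170 to 438 counts). Every one lay above all 6 Bap1flox preOCs, a log2 fold change of 2.28 (SE 0.27, edgeR adjusted p = 0.000596), or 4.86-fold, which held in 11 of 11 fits that left out a library. Without the library labelled Bap1LysM preOC 1 it was 2.17 (adjusted p = 0.000496). In BMMs the direction was the other way but did not pass, with Bap1LysM at 23.5, 18.5 and 33.2 CPM (-0.47, SE 0.23, adjusted p = 0.25). In Bap1LysM, Ggt5 fell by 1.96 with RANKL (SE 0.40, edgeR adjusted p = 0.00405), and fell by 2.63 (adjusted p = 0.00379) with both Bap1LysM libraries numbered 1 left out. The interaction was 2.43 (SE 0.51, unadjusted p = 0.000783, edgeR adjusted p = 0.33), and 1.77 with both Bap1LysM libraries numbered 1 left out (adjusted p = 0.223). With all 11 libraries it passed with DESeq2 (2.42, adjusted p = 0.00372) and in a fit of all 17 libraries that also held library set (2.82, adjusted p = 0.00686), where 1440 genes passed.

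**Figure D5:**
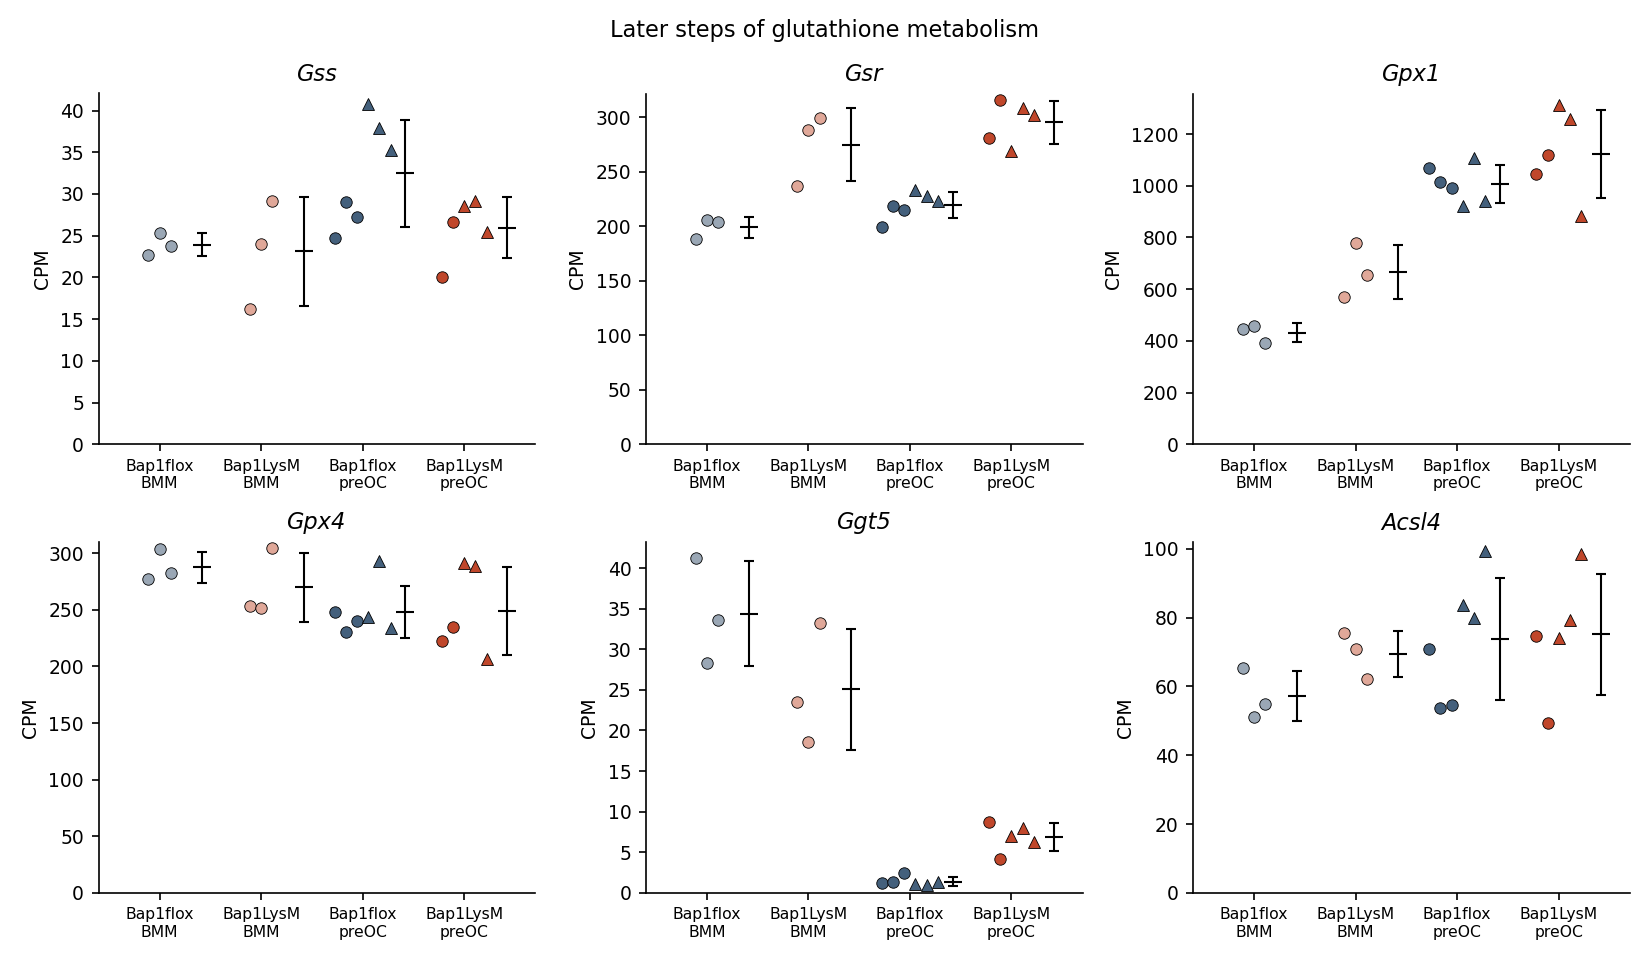
CPM of Gss, Gsr, Gpx1, Gpx4, Ggt5 and Acsl4 in each library of the 4 groups (circles, replicates 1 to 3; triangles, replicates 4 to 6; separate y axes from 0), with mean and SD. For Gsr and Ggt5 the preOC genotypes do not overlap, and Ggt5 is at 2.41 CPM or below in all Bap1flox preOCs.

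Several of these genes were highest in the same library of a group. In Bap1flox BMMs 6 of 10 were highest in replicate 1 (Slc7a11, Slc3a2, Gclc, Gclm, Ggt5 and Acsl4). In Bap1flox preOCs 4 were highest in replicate 6 (Slc7a11, Gclc, Gclm and Acsl4), and in Bap1LysM preOCs 4 were highest in the library labelled replicate 1 (Slc7a11, Slc3a2, Gclm and Ggt5), while replicate 2 was lowest for 5. Gss was the lowest of its group in the library labelled Bap1LysM preOC 1. Osteoclast markers summed to 6065 CPM in the library labelled Bap1LysM preOC 1 and to 6599 CPM in Bap1flox preOC 1, the lowest of their groups.

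Markers of other cells also moved with genotype in preOCs. In bulk cultures fewer cells of a type and less RNA per cell cannot be told apart. The 8 macrophage markers, Lyz2 among them, summed to 10147 to 17493 CPM in Bap1flox and 3686 to 12078 CPM in Bap1LysM preOCs. Without Lyz2, a sum chosen after its level was seen, the other 7 were at 3502 to 4508 CPM in Bap1flox and 3673 to 5568 CPM in Bap1LysM preOCs, which overlapped. The 8 neutrophil markers summed to 84.3 to 216 CPM in Bap1flox and 166 to 581 CPM in Bap1LysM preOCs, with Ly6g under 1 CPM throughout. The 5 dendritic cell markers summed to 2.80 to 5.04 and 5.30 to 11.2 CPM. Siglech and Xcr1 were under 1 CPM in either genotype, and in Bap1flox preOCs Flt3 and Ccr7 were too. The 6 stromal markers split Bap1flox preOCs by library set, at 215 to 382 CPM in replicates 4 to 6 and 1286 to 2195 CPM in replicates 1 to 3, and ran from 123 to 1408 CPM in Bap1LysM preOCs. With RANKL in Bap1flox replicates 1 to 3, the neutrophil markers were at 226 to 281 CPM in BMMs and 84.3 to 165 CPM in preOCs, and the macrophage markers at 27927 to 32803 and 10147 to 11588 CPM, without overlap. The 7 macrophage markers other than Lyz2 were at 8058 to 10005 CPM in Bap1flox BMMs, above their range in Bap1flox preOCs. Their part in the RANKL differences was not tested. The 3 T cell and the 5 erythroid markers were all under 1 CPM. The part of these cells in the values above was not tested.

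Of 98 further genes of cystine, glutamate, glutathione, peroxide, NADPH, lipid peroxide and selenoprotein metabolism, 86 could be tested between genotypes in preOCs (median log2 fold change -0.03, -0.01 over all genes). Slc1a2, a glial glutamate carrier at 0.160 to 0.834 CPM in Bap1flox and 0.884 to 3.48 CPM in Bap1LysM preOCs, passed the filter only through the Bap1LysM libraries, so its test is not given or counted. Of the other 85 genes, each above 1 CPM in a library of each genotype (a condition set after these levels were seen), 8 were higher and 10 lower in Bap1LysM, or 21.2%, beside 15.2% of the 12788 genes that meet this condition. Among 13 genes that supply cysteine and glutamate 2 were lower. Ethe1, a mitochondrial persulfide dioxygenase of cysteine breakdown, was lower in Bap1LysM preOCs (-0.84, SE 0.13, adjusted p = 0.00193). Ethe1 was also lower in Bap1LysM BMMs (-0.79, SE 0.16, adjusted p = 0.0444).

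Among 13 genes of glutathione turnover and export, 1 was higher and 2 were lower in Bap1LysM preOCs. Abcc4, an exporter of organic anions and glutathione conjugates, was at 29.1 to 41.9 CPM in Bap1flox and 18.7 to 25.0 CPM in Bap1LysM (-0.76, SE 0.11, edgeR adjusted p = 0.00163). Of 25 peroxide and thiol enzymes 2 were higher and 3 lower. Catalase (Cat) was at 278 to 735 and 357 to 1198 CPM (1.05, SE 0.31, adjusted p = 0.0376), and lost its call in 9 of 11 fits that left out a library. Of 11 NADPH genes 3 were higher and 2 lower, and of 13 lipid peroxidation genes 1 was higher, the cytochrome P450 reductase Por (0.68, SE 0.16, adjusted p = 0.0172). Of 6 genes of selenoprotein synthesis 1 was lower.

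In BMMs 2 of 87 such genes were higher and 5 lower in Bap1LysM, or 8.05%, beside 5.32% of all genes. Besides Slc7a8, Ethe1, the NADPH gene Me1 and the sulfurtransferase Mpst, these were Oplah, the 5-oxoprolinase of the glutathione cycle (-1.26, SE 0.19, edgeR adjusted p = 0.0225), glutamine synthetase Glul (-0.92, SE 0.20, adjusted p = 0.0482) and the lysosomal cystine exporter Ctns (-0.62, SE 0.11, adjusted p = 0.034). Ctns kept its call in 1, Glul in 1, Ethe1 in 2 and Oplah in 3 of 6 fits that left out a library. The cysteine and glutamate list had a median of -0.29 beside -0.01 over all genes, and 4 of 14 were lower, where 4.01% of all genes were.

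RANKL in Bap1flox raised 34 and lowered 23 of 87 such genes above 1 CPM in a library of each condition, or 65.5%, beside 57.6% of the 12603 genes that meet this condition. The glutamine carrier Slc1a5 rose by 2.46 (SE 0.30, edgeR adjusted p = 0.000109), while Csad, an enzyme of taurine synthesis from cysteine, fell (-1.95, SE 0.19, adjusted p = 3.59e-05). Cdo1, which acts before it, was at 0.886 to 1.41 CPM in Bap1flox BMMs and 0.0799 to 0.305 CPM in Bap1flox preOCs, and its test is neither given nor counted because all Bap1flox preOCs lay under the filter. Acsl1, an acyl-CoA synthetase related to Acsl4, rose by 2.65 (SE 0.09, adjusted p = 2.34e-07). Cat (-2.68, SE 0.35, adjusted p = 0.000169) and the secreted peroxidase Gpx3 (-2.19, SE 0.40, adjusted p = 0.00105) fell. By list, 5 rose and 4 fell of 14 supply genes, 2 and 1 of 14 turnover genes, 9 and 6 of 25 peroxide and thiol enzymes, 5 and 5 of 11 NADPH genes, 8 and 4 of 13 lipid peroxidation genes and 3 and 1 of 6 selenoprotein synthesis genes.

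Of 6 regulators of the pathway, none passed between genotypes in preOCs or in BMMs by edgeR. These are Nfe2l2 (NRF2), its inhibitor Keap1, the repressor Bach1, Atf4, Ddit3 and Trp53, and their log2 fold changes were -0.19 to 0.48 in preOCs and -0.20 to 0.24 in BMMs. At an unadjusted p under 0.05 there were 0 in preOCs and 1 in BMMs (Trp53, edgeR unadjusted p = 0.0245). DESeq2 also passed 0 in either, and limma passed 3 in preOCs (Keap1, Atf4 and Trp53), where it passed 7099 of the 12929 genes, and 0 in BMMs. Atf4 was at 149 to 208 CPM in Bap1flox and 155 to 201 CPM in Bap1LysM preOCs, which overlapped throughout. With RANKL in Bap1flox, Atf4 (0.72, SE 0.11, edgeR adjusted p = 0.000404) and Trp53 (0.86, SE 0.10, adjusted p = 9.66e-05) rose, and Nfe2l2 (-0.82, SE 0.14, adjusted p = 0.000755), Bach1 (-0.97, SE 0.20, adjusted p = 0.00251) and Keap1 (-0.44, SE 0.14, adjusted p = 0.0238) fell. Keap1 kept its call in 7 of 11 fits that left out a library, with an adjusted p of up to 0.0885 (without Bap1flox preOC replicate 2).

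Among the genes whose log2 CPM was most like that of Slc7a11 over all 17 libraries were Ano6, a phospholipid scramblase (Pearson r = 0.97), Dock10 (0.95), Myof, a membrane repair protein (0.95), and Mgam, a maltase (0.95). This is a description over 12929 genes, and the libraries share group and library set. Mean Ano6 was at 186 and 221 CPM in BMMs of Bap1flox and Bap1LysM and at 254 and 377 CPM in their preOCs. Of the other 9 genes Gpx1 was the most like Slc7a11 (r = 0.76) and Gclm the least (r = -0.53), and Slc3a2 ranked 9082 (r = -0.43).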

How the data were processed

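Polyadenylated RNA was sequenced from 17 libraries. Per the labels and the study's methods, the authors aligned reads to GRCm38 (Ensembl release 76) with STAR 2.5.1a, counted them per gene with featureCounts 1.4.6-p5 of Subread, and deposited raw counts, the unit used here, with gene positions and lengths. The strand setting is not given in the sources used here. Of 41388 identifiers, 355 rRNA genes (0.0319% to 0.359% of counts) were left out, and 39985 had a symbol. Genes above 1 CPM in at least 4 of 11 preOC, 2 of 6 BMM or, for RANKL, 2 of 11 libraries were tested by edgeR 4.0.16 (R 4.3.3; TMM factors, quasi-likelihood test, Benjamini-Hochberg adjusted p of 0.05). Genotype was fitted within preOCs and within BMMs, and RANKL and the interaction in a single fit of 11 libraries of replicates 1 to 3. Printed CPM are TMM-scaled over all 17 libraries.

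The log2 ratio of Slc7a11 to Slc3a2 was compared by exact permutation tests that went through every arrangement of the libraries (numpy 2.4.6). Alternatives were limma 3.58.1 (voomWithQualityWeights), DESeq2 1.42.0, other factors and filters, the library set, and each library left out. Fits were tested on simulated data. At these depths a member's counts were 44 or above in every library. Replicate numbers share a library set, not a known mouse. Same-numbered preOC libraries deviated together (correlations 0.39 to 0.73), and with each set's mean removed the correlations were -0.14 to 0.45. In BMMs they were 0.36 to 0.54. A fit with the number as a block was therefore run beside each test.

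The members and gene lists were chosen with earlier results of these data known. Named list genes are the 6 per comparison with the largest change among those past the threshold, at least 1.5-fold, in a list (5 in BMMs, where 5 qualified). Genes most like Slc7a11 are the 5 with the highest Pearson r of log2 CPM (prior count 2), of which 4 are given. A marker list and a gene that these rules name are not reported here. Promoter windows are RefSeq's (GRCm38.p6).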

Additional observations from a re-analysis of the deposited data

Results flagged for a closer look

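Of 22 groups of preOC values examined, 4 held a library separated from the rest of its group by more than Dixon's 95% limit, where chance gives about 1 in 20. Slc7a11 was at 26.9 CPM in Bap1flox preOC replicate 6, above the other 5. Slc3a2 was at 311 CPM in the library labelled Bap1LysM preOC 1. Gpx4 was at 293 CPM in Bap1flox preOC replicate 5. Ggt5 was at 2.41 CPM in Bap1flox preOC replicate 3. Without Bap1flox preOC replicate 6 the log2 fold change of Slc7a11 by genotype was 1.43 (edgeR adjusted p = 0.00071).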

How the results depend on the processing

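The calls of Slc7a11, Gsr and Ggt5 between genotypes in preOCs held in all 11 fits that left out a library (1.18 to 1.43, 0.36 to 0.43 and 2.17 to 2.53), and in replicates 1 to 3 alone Slc7a11 was at 1.56 with 0 of 10 members and 0 genes called. Leave-outs that leave a single Bap1LysM preOC library assume that it varies like the other groups.

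By genotype and by RANKL in Bap1flox, signs turned only for values near 0, and by RANKL in Bap1LysM and in the interaction also for larger ones. In preOCs Acsl4 was at 0.11 with limma, 0.0219 with DESeq2, 0.0219 with RLE factors, 0.0427 in replicates 1 to 3 and 0.0291 with all 17 libraries, Gclc at 0.0010 with limma and 0.0917 in replicates 1 to 3, and Gpx4 at 0.0859 with limma and 0.0034 with all 17 libraries. In BMMs Gclm was at 0.10 with limma. With a library left out Acsl4 ran from -0.11 to 0.11, Gclc from -0.13 to 0.0322 and Gpx4 from -0.0850 to 0.0360 in preOCs, Gclm from -0.11 to 0.14 and Gss from -0.26 to 0.14 in BMMs, and Acsl4 by RANKL in Bap1flox from -0.0759 to 0.17. The Slc7a11 to Slc3a2 ratio ran from 0.91 to 1.20 in preOCs and from -0.18 to 0.28 in BMMs. In the interaction, Gclm (0.56 with all 11 libraries) ran from -0.21 to 1.06, Slc3a2 from -0.50 to 0.36 and Gclc from -0.68 to 0.0266. Acsl4 there ran from -0.56 to 0.0441, Gss from -0.39 to 0.0414, Gpx4 from -0.0228 to 0.12 and Gsr from -0.0601 to 0.12. By RANKL in Bap1LysM Acsl4 ran from -0.49 to 0.11 and Gss from -0.21 to 0.22.

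Members called in BMMs numbered 4 with limma, 3 with DESeq2, 0 with RLE or upper-quartile factors, 3 with the replicate block, 2 with all 17 libraries and 0 to 2 with a library left out. In the interaction 1 was called with DESeq2, 1 with all 17 libraries and the library set, and 0 to 1 with a library left out. With the replicate block the preOC ratio was 1.04 (exact p = 0.0625, the smallest 5 pairs allow), and it was 1.20 in replicates 1 to 3 and 0.83 in replicates 4 to 6, where the exact p cannot go below 0.1. The block changed the calls given above for Gss, Gsr and Slc3a2 and no other member's.

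Genes called in preOCs numbered 2043, and 7099 with limma, 4236 with the block, 4349 with the library set, 4304 in replicates 4 to 6 and 1071 to 3085 with a library left out. Upper-quartile factors gave 699 higher and 1403 lower, against 921 and 1122. In BMMs there were 693, and 1772 with limma, 2065 with DESeq2, 2107 with the block and 4 to 756 with a library left out. By RANKL in Bap1LysM limma called 2937 genes and edgeR 5308. The interaction called 0, 117 with DESeq2, 1440 with all 17 libraries and the library set, and 0 to 119 with a library left out. The cause of these differences was not tested.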
